A study of Homo sapiens with 6 samples.

Results

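Sialyltransferases are the Golgi enzymes that place sialic acid on the ends of glycan chains, and the genes described here are 10 of this family, taken by their names from the count table: ST6GAL1, ST6GAL2, ST3GAL1, ST3GAL2, ST3GAL3, ST3GAL4, ST3GAL5, ST3GAL6, ST8SIA1 and ST6GALNAC6. They are 10 of the 57341 named genes of the table, and 9 of them had enough counts to be among the 16710 genes tested. RNA of the adrenocortical carcinoma line H295R was sequenced in 3 libraries of the parental cells (labelled H295R) and 3 of H295R-PM-Ptc+, a population that was isolated from that line by flow cytometry with an antibody to the Hedgehog receptor Ptch1 on the cell surface, and then expanded. The sample titles call these groups parental cells and the Ptch1 positive subpopulation. None of the cells received a treatment, both groups grew in the same medium, and the labels do not say whether the 3 replicates of a group came from separate cultures, so that the p-values measure the spread between these libraries. A bulk sort of this kind is a mixture and not a clone, and fewer cells that use a gene cannot be told apart from less of its RNA per cell.

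Every enzyme of the family takes its donor, CMP-sialic acid, from the Golgi lumen, and the members differ in the sugar they extend and in the bond they form. The ST6GAL enzymes join sialic acid to galactose in the α2,6 linkage, mostly on N-glycans, the ST3GAL enzymes in the α2,3 linkage on glycoproteins and glycolipids, and the ST8SIA enzymes join it to another sialic acid. Sialic acid in the α2,6 linkage blocks the binding of many galectins to the galactose beneath it, while several accept the α2,3 linkage, and in gangliosides, the sialylated glycosphingolipids of the plasma membrane, successive sialyltransferases set which series of lipids a cell makes. The study placed ST6GAL1 among its genes of interest and ST3GAL5, ST3GAL6 and ST8SIA1 in one of its network modules, all on the same libraries, so these choices are not independent of the values given here.

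PTCH1, the gene the population was sorted for, goes against the labels. It had 441, 559 and 579 counts in the libraries labelled H295R and 248, 326 and 319 in those labelled H295R-PM-Ptc+ (replicates 1, 2 and 3). Its log2 fold change was thus -0.81 (SE, the standard error, 0.147, with an adjusted p of 0.0207 by edgeR's quasi-likelihood test). In addition, the normalized values that the study published for these libraries carry the group names the other way round. Which naming is correct cannot be told from the counts. Libraries are therefore called by the label of the deposited table, every log2 fold change is that of the libraries labelled H295R-PM-Ptc+ over those labelled H295R, and each direction given here turns around if the names are exchanged.

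Between 23264403 and 25813247 fragments were counted per library. The adrenocortical markers were present, with NR5A1, the transcription factor of steroid-producing cells, at 8273 counts or more and STAR, the carrier of cholesterol into mitochondria, at 6318 or more in every library. The summed level of 8 such markers was 880 to 1160 CPM (counts scaled to library size) in the libraries labelled H295R and 958 to 1216 in the others. Of these 8, CYP21A2 alone passed the test, higher by 0.88 in log2 (adjusted p = 0.00670), and with the replicate number as a block 3 of the 8 passed, CYP21A2 and STAR as higher and CYP11A1 as lower. Over all tested genes 3.73% passed, and 22.5% with the block. Markers of cells that a line should lack were low: the 5 endothelial markers reached 11 counts at most, 4 leukocyte markers at most 2 (PTPRC and CD68 were at 0 throughout, and the sum of the whole leukocyte list is not reported here), and the 3 defining chromaffin enzymes TH, DBH and PNMT had at most 2. The 5 fibroblast markers summed to 8.39 to 9.63 CPM in the libraries labelled H295R and 10.3 to 12.7 CPM in the others, with LUM at 0 and a rise in THY1 (log2 fold change 1.29, adjusted p = 0.0175), and the groups did not overlap in the sums of the endothelial and chromaffin lists. These were 0.197 to 0.335 and 0.509 to 0.648 CPM for the endothelial markers and 65.2 to 76.7 and 51.5 to 61.2 CPM for the chromaffin markers (nearly all CHGB), in the libraries labelled H295R and in the others. The part of these markers in the results below was not tested.

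The promoters of 4 genes are shown first because their genes were the ones whose libraries did not overlap between the groups: ST6GAL1, ST8SIA1 and ST3GAL6 were lower and ST3GAL5 was higher in each library labelled H295R-PM-Ptc+ than in each labelled H295R. Each line gives, 5′ to 3′ on the strand of the gene, the bases before the most upstream start in RefSeq (GRCh38.p14, the build of the count table being GRCh38 as well) that lie outside the exons counted for that gene. The counted gene model of ST8SIA1 reaches further upstream than its RefSeq start. They cover chr3:186930276-186930484 on the plus strand, chr12:22334715-22334957 on the minus strand, chr3:98732012-98732235 on the plus strand and chr2:85889035-85889284 on the minus strand. Capitals mark the letters GGGCGG (a GC box) or TGACGTCA (a cyclic AMP response element), searched on both strands.
ST6GAL1: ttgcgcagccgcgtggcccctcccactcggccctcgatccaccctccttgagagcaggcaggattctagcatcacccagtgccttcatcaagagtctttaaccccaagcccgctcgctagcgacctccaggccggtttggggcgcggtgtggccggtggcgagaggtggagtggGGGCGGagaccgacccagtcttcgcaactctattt
ST8SIA1: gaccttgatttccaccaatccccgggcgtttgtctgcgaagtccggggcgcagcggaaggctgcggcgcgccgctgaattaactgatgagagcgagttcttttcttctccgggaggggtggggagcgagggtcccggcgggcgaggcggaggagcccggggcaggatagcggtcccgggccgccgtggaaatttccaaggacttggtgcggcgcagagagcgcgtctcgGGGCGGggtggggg
ST3GAL6: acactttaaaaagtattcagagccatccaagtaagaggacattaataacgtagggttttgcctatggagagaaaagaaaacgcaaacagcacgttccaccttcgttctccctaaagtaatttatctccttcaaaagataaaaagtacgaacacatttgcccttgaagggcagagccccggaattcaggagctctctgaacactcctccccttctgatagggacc
ST3GAL5: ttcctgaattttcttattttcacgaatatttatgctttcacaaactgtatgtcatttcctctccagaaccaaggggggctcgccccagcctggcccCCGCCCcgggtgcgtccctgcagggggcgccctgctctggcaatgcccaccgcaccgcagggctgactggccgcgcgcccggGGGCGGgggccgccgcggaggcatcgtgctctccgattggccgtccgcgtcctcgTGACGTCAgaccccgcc

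RefSeq windows (250 bases before to 50 after a start) were found for 8 of the 10 genes, 22 windows in all. The letters GGGCGG were in 15 of these 22 windows, and in 45.0% of all 35116 windows. Windows of 1 gene can overlap, so the 22 are not independent. The window of ST3GAL6 printed above held none, its GC boxes lying at other starts. TGACGTCA was found at ST3GAL5 alone among the 8 genes, in 2 of its 5 windows, and in 1.85% of all windows. The letters ACCACCCA, the core bound by the GLI factors of the Hedgehog pathway (1.25% of all windows), and AAGGTCA, the core bound by NR5A1 (3.92%), were in none of the 22 windows. These matches describe the letters of these windows and nothing beyond them.

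ST6GAL1 makes the α2,6-sialylated ends of N-glycans, and it was the member with the most counts in the libraries labelled H295R, as ST3GAL5 was in the others. It lies on chromosome 3 from 186930485 to 187078553 on the plus strand. In counts it had 3871, 3241 and 3221 where the label was H295R, and 2164, 2045 and 1854 where it was H295R-PM-Ptc+. Scaled by library size with TMM factors, these are 162, 128 and 130 CPM against 84.7, 82.3 and 80.1 CPM. The groups lay far apart, and replicate 1 labelled H295R stood above the other libraries of its group while the 3 libraries labelled H295R-PM-Ptc+ were nearly level. ST6GAL1 fell from 140 ± 19.1 to 82.3 ± 2.29 CPM (SD, n = 3 each), or 1.70-fold. On the log2 scale the change was -0.77 with an SE of 0.101 (adjusted p = 0.00426, edgeR, adjusted over all tested genes). The pairs of libraries that share a replicate number and a code on their labels (1801, 3001 or 3101, of which the labels do not say what it marks) gave log2 ratios of -0.94, -0.63 and -0.70, lower in 3 of 3 pairs. ST6GAL1 passed in all 13 alternative fits, with an adjusted p of at most 0.0311 and a log2 fold change between -0.83 and -0.65.

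ST6GAL2, the other enzyme that forms this bond, lies on chromosome 2 from 106801600 to 106887108. It had 0 counts in 5 libraries and 2 in replicate 2 labelled H295R-PM-Ptc+. A count of 0 allows up to 3 counts, or 0.117 to 0.130 CPM, per library, so no fold is given. ST6GAL1 therefore held nearly all of the RNA counted for this bond in both groups.

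**Figure D1:**
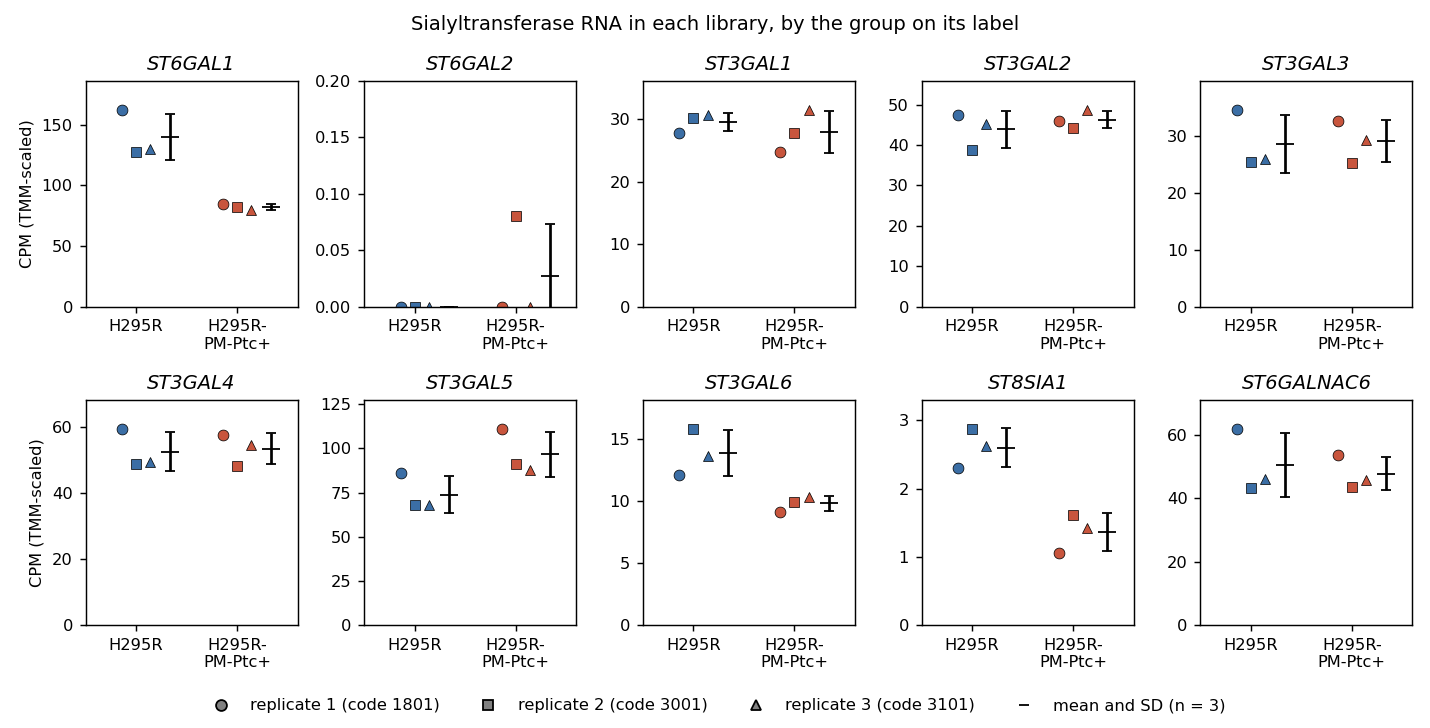
Level of each of the 10 genes in each library, in TMM-scaled CPM on an axis from 0, by the group on the label; symbols mark the replicate and label code, and bars the mean and SD of 3 libraries. The groups do not overlap for ST6GAL1, ST8SIA1, ST3GAL6 and ST3GAL5, while ST6GAL2 has counts in 1 library only.

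ST8SIA1 is the GD3 synthase, which adds a further sialic acid to the ganglioside GM3 and opens the b series of gangliosides. It lies on chromosome 12 from 22063773 to 22437041 on the minus strand and was little expressed. Its counts were 55, 73 and 65 in the libraries labelled H295R and 27, 40 and 33 in those labelled H295R-PM-Ptc+. Here every library labelled H295R was again above every other one, but the exact 95% counting intervals of the closest pair, 40 (28.6 to 54.5) and 55 (41.4 to 71.6), overlap. In CPM the means were 2.60 ± 0.287 and 1.36 ± 0.281 (SD, n = 3 each). The fitted log2 change was -0.93 with an SE of 0.206 (adjusted p = 0.0429, edgeR). The ratio was negative in each pair, at -1.12, -0.84 and -0.88 (log2). This call was close to the threshold. Leaving out replicate 2 or 3 of the libraries labelled H295R moved the adjusted p to 0.146 or 0.136. Leaving out replicate 1, 2 or 3 of those labelled H295R-PM-Ptc+ moved it to 0.108, 0.0810 or 0.137. Each of these fits also called fewer of all genes, 219 to 430, against 624 with all 6 libraries. With the replicate number as a block the adjusted p of ST8SIA1 was 0.00191. CMAS, the gene of the enzyme that activates sialic acid, overlaps the end of ST8SIA1 on the other strand without sharing a counted exon base.

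ST3GAL5 is the GM3 synthase, which makes the simplest ganglioside from lactosylceramide and so provides the substrate of ST8SIA1. It lies on chromosome 2 from 85839144 to 85889014 on the minus strand. Its levels were 85.9, 67.8 and 67.9 CPM in the libraries labelled H295R and 111, 91.2 and 87.6 CPM in those labelled H295R-PM-Ptc+. Replicate 1 was the highest of its group in both, and the groups did not overlap, by a margin of 1 pair of close values (85.9 against 87.6). At a fitted log2 change of 0.39 with an SE of 0.124, ST3GAL5 did not pass (adjusted p = 0.138). Within pairs the ratio hardly varied, at 0.37, 0.43 and 0.37 (log2), and with the replicate block ST3GAL5 passed (adjusted p = 2.00e-05).

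ST3GAL6, which sialylates galactose on glycoproteins and glycolipids and takes part in making sialyl Lewis x, lies on chromosome 3 from 98732236 to 98821201. It had 12.1, 15.8 and 13.6 CPM in the libraries labelled H295R and 9.12, 9.94 and 10.3 CPM in those labelled H295R-PM-Ptc+. All 3 values of the second group were below those of the first. The fitted log2 change was -0.50 with an SE of 0.123, and the adjusted p of 0.0622 lay just above the threshold. With the replicate block the adjusted p was 8.94e-04. Neighbors on the other strand share counted exon bases with ST3GAL6: DCBLD2 (235 bases), which was far more abundant (123 and 96.1 CPM, log2 fold change -0.36, adjusted p = 0.158), and ST3GAL6-AS1 (107 bases, 20 to 36 counts per library, log2 fold change 0.03). The study states that strand was used in counting, and the part of these neighbors in the value of ST3GAL6 was not tested. The pseudogene PDLIM1P4, on the same strand, shares 354 bases with it and had at most 2 counts.

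The other 5 tested members showed no difference that passed, with overlapping groups in each. ST3GAL2 and ST6GALNAC6 share 590 and 264 exon bases with RP11-529K1.4 and RP11-203J24.9, which had at most 4 and 12 counts. ST3GAL1 and ST3GAL2, which sialylate the galactose of the core of O-glycans, stood at -0.08 (SE 0.0999, adjusted p = 0.769) and 0.08 (SE 0.0917, adjusted p = 0.747), both log2. ST3GAL3 and ST3GAL4, which act on N-glycan antennae and Lewis structures, stood at 0.02 (SE 0.139, adjusted p = 0.958) and 0.02 (SE 0.102, adjusted p = 0.944). ST6GALNAC6, which adds sialic acid to an N-acetylgalactosamine or N-acetylglucosamine of glycolipids, stood at -0.08 (SE 0.140, adjusted p = 0.847). Their ratios within pairs lay between -0.21 and 0.19 (log2), and each of these 5 genes had pairs on either side of 0. A p above the threshold does not show that the groups were alike, and the standard errors leave room for modest differences in these 5 genes.

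**Figure D2:**
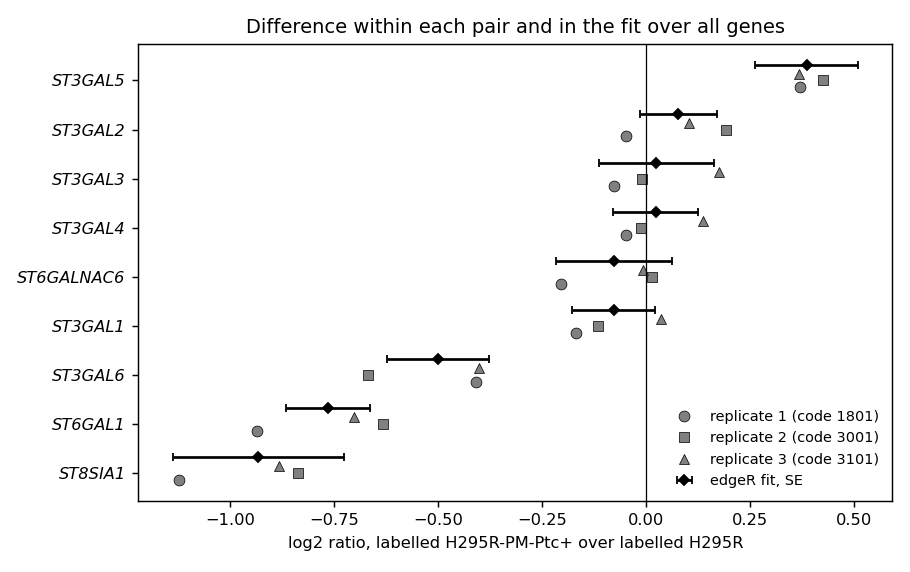
Log2 ratio of the libraries labelled H295R-PM-Ptc+ over those labelled H295R for the 9 tested members; grey symbols compare the 2 libraries of one label code, black diamonds give the edgeR fit with its standard error. ST8SIA1, ST6GAL1 and ST3GAL6 lie below 0 and ST3GAL5 above 0 in each of the 3 pairs.

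Counted over the members, 2 of the 9 tested genes passed, ST6GAL1 and ST8SIA1, both lower where the label was H295R-PM-Ptc+, and 0 passed as higher. Of all 16710 tested genes 3.73% passed in either direction, 1.32% as lower and 2.42% as higher. At an unadjusted p under 0.05 there were 4 members, the others being ST3GAL6 and ST3GAL5, where 17.3% of all tested genes reached this. DESeq2 called 3 members (ST3GAL6 as well) and 5.45% of all tested genes, and limma-voom 2 members and 3.64%. The groups did not overlap in 4 of the 9 members, against 23.5% of all tested genes. With the replicate block 4 members passed, 3 lower and 1 higher, where the block called 22.5% of all tested genes. The median log2 fold change of the 9 members was -0.08, beside 0.00 over all tested genes (median 9.39e-04). The members were thus split, 5 below and 4 above 0, and no common direction was seen.

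Without the low-count filter 4 members passed (3.59% of all genes then tested), and likewise without the library labelled H295R replicate 1 (4.75%). In the 5 fits that each left out one of the other libraries ST6GAL1 was the only member that passed. These fits called 219 to 430 of all genes, against 624 with all 6 libraries.

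**Figure D3:**
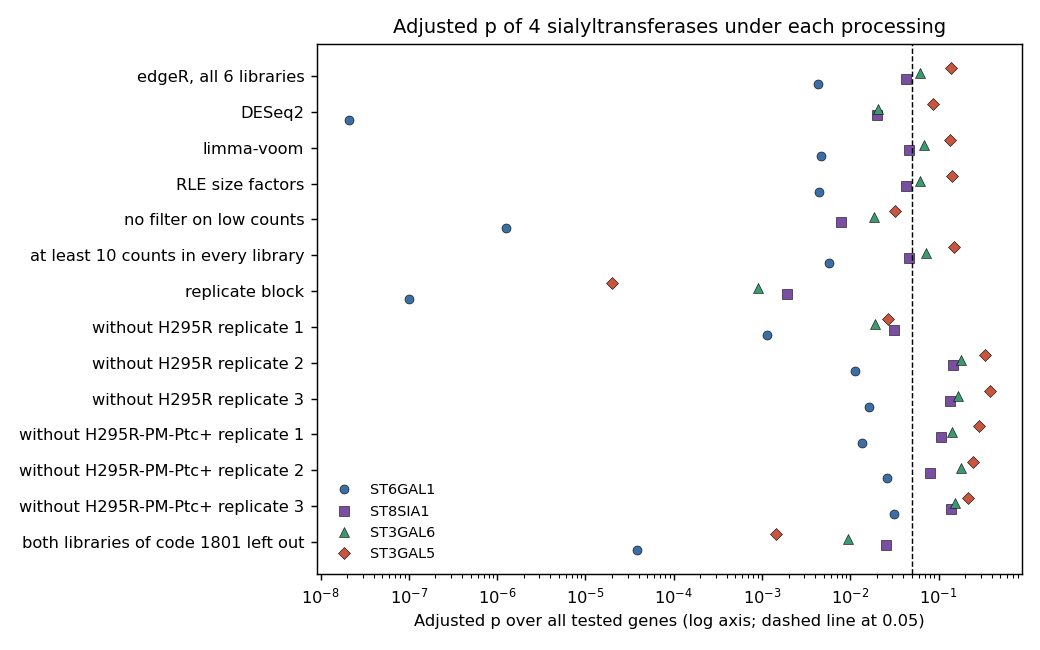
Adjusted p (log axis) of ST6GAL1, ST8SIA1, ST3GAL6 and ST3GAL5 in the fit with all 6 libraries and in 13 alternatives, with the threshold of 0.05 dashed. ST6GAL1 stays left of the line throughout, and ST8SIA1 moves right of it in 5 of the 6 fits that leave out 1 library.

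Levels of different genes were compared as CPM per kilobase of the exon length that the counting reported for each gene. In the libraries labelled H295R the order began with ST6GAL1 (15.3 ± 2.09), ST3GAL5 (13.3 ± 1.88), ST3GAL4 (11.8 ± 1.34) and ST6GALNAC6 (9.49 ± 1.89, all CPM per kilobase, SD, n = 3). The ranges of neighbors among these 4 overlapped across the libraries, replicate 1 being the highest for each of the 4, while within each of the 3 libraries the order was the same. In the libraries labelled H295R-PM-Ptc+ ST3GAL5 came first (17.4 ± 2.27), apart from ST3GAL4 (12.0 ± 1.04), and ST6GAL1 (9.0 ± 0.250) came next, level with ST6GALNAC6 (8.99 ± 0.986).

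The lower ranks were the same in both groups and no neighbors among them overlapped. ST3GAL3 had 6.43 ± 1.14 and 6.53 ± 0.830 CPM per kilobase, ST3GAL2 4.50 ± 0.466 and 4.75 ± 0.219, and ST3GAL1 3.39 ± 0.170 and 3.21 ± 0.381 in the libraries labelled H295R and H295R-PM-Ptc+. ST3GAL6 followed with 2.20 ± 0.295 and 1.56 ± 0.0981, and ST8SIA1, far below, with 0.180 ± 0.0198 and 0.0942 ± 0.0194 CPM per kilobase. ST8SIA1 carries one of the longest counted lengths of the family, 14483 bases, and its per-length level depends on that length.

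**Figure D4:**
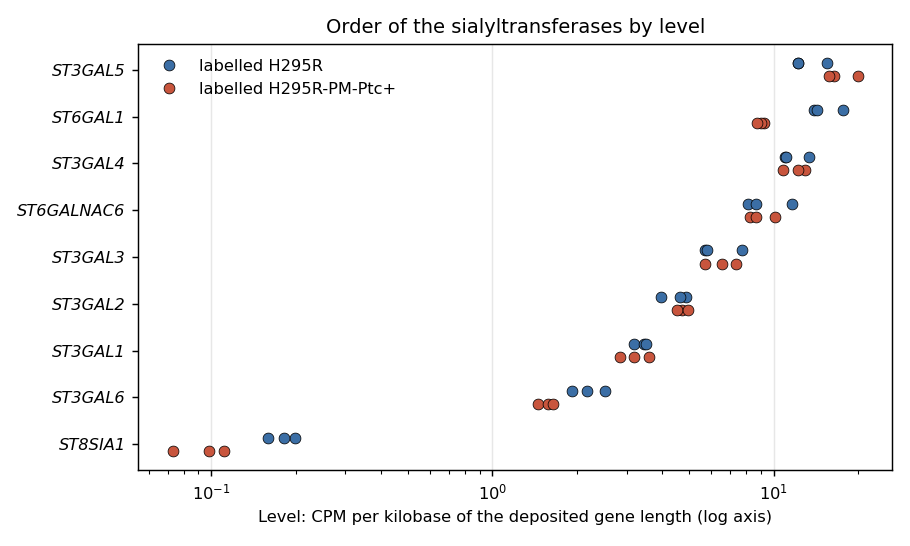
Level of 9 members in every library as CPM per kilobase of counted length, on a log axis, ordered by the mean of all 6 libraries (ST6GAL2 is left out, with 0 counts in 5 libraries). ST6GAL1 ranges from 13.9 to 17.7 in the libraries labelled H295R and from 8.75 to 9.25 in the others, where ST3GAL5 is at 15.8 or more.

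The make-up of the set can be read from these per-length levels, as a description with no test. The 2 ST6GAL genes held 23.3%, 22.8% and 22.8% of the summed level of the 10 genes in the libraries labelled H295R and 13.5%, 15.1% and 14.1% in those labelled H295R-PM-Ptc+. The 6 ST3GAL genes held 61.2%, 63.5% and 63.1% in the first group and 71.7%, 70.9% and 71.9% in the second. Shares of a sum are tied, so a fall of ST6GAL1 by itself raises the shares of the others. By level ST3GAL5 stood at 0.39 and ST3GAL6 at -0.50, and ST3GAL1 to ST3GAL4 lay between -0.08 and 0.08 (log2). ST3GAL5 alone held between 19.5% and 20.4% in the first group and 29.1%, 27.6% and 25.3% in the second. The ratio of ST6GAL1 to ST3GAL5 was 1.14, 1.14 and 1.16 in the libraries labelled H295R and 0.463, 0.547 and 0.555 in the others, so that replicates of the first group, which differed in both genes, had nearly the same ratio. The summed level itself overlapped, at 66.6 ± 8.25 and 63.5 ± 4.66 CPM per kilobase.

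Replicate 1 of both groups, with label code 1801, stood apart from replicates 2 and 3 on the second principal component of all genes (27.6% of the variance; the first, 45.7%, separated the groups), and several members moved with it. ST6GALNAC6 was higher in replicate 1 than in the mean of replicates 2 and 3 by 0.47 and 0.26, ST3GAL3 by 0.42 and 0.27, ST3GAL5 by 0.34 and 0.31 and ST3GAL4 by 0.27 and 0.16, all log2 CPM, in the libraries labelled H295R and H295R-PM-Ptc+. ST8SIA1 (-0.25 and -0.49), ST3GAL6 (-0.28 and -0.15) and ST3GAL1 (-0.13 and -0.25) were lower in it. With both libraries of code 1801 left out, an alternative chosen after seeing the data, ST6GAL1, ST8SIA1, ST3GAL6 and ST3GAL5 passed, the last with an adjusted p of 0.00146, where 12.0% of all genes then tested passed.

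The 10 genes lie on 8 chromosomes, and the tested genes around the 4 above had medians near 0. Among the 25 nearest tested genes on each side, the median log2 fold change was -0.02 around ST6GAL1, 0.01 around ST8SIA1, 0.01 around ST3GAL5 and -0.10 around ST3GAL6, where 34 of the 50 neighbors were below 0. ST6GAL1 lay -0.74, ST8SIA1 -0.94, ST3GAL6 -0.40 and ST3GAL5 0.37 beyond these medians (log2). ST3GAL4 overlaps KIRREL3 on the other strand without a shared exon base, and KIRREL3 fell (log2 fold change -1.45, adjusted p = 0.00996), a difference ST3GAL4 did not share.

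The tested genes outside the lists whose log2 CPM followed ST6GAL1 most closely over the 6 libraries were GTF3C3 (Pearson r = 0.998) and FADS3 (0.997). The r of these genes is a description, since the libraries share the groups and label codes, and 207 of 16650 genes had an r above 0.95. FADS3 fell as well (log2 fold change -0.46, adjusted p = 0.0216), while GTF3C3 stood at -0.19 (adjusted p = 0.212).

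The rest of the family held few counts or did not pass. Of the 10 further human sialyltransferases, 5 were tested and 0 passed by edgeR, DESeq2 or limma-voom, 1 of them (ST8SIA4) having an unadjusted p under 0.05, as 17.3% of all tested genes did. ST8SIA5, which extends gangliosides to more sialylated forms, had more counts than any of the 10 members, 3907 to 5689 in the libraries labelled H295R and 4929 to 6832 in the others, and its log2 fold change was 0.29 (adjusted p = 0.433, and 1.60e-04 with the replicate block). The value of ST8SIA5 was 0.15 without H295R replicate 1. Leaving out replicate 3 or 1 of the libraries labelled H295R-PM-Ptc+ gave 0.19 or 0.44. ST8SIA4, a polysialyltransferase of the neural cell adhesion molecule, had 15.1 ± 0.537 and 19.1 ± 1.42 CPM without overlap (SD, n = 3 each), which is 0.34 in log2 (adjusted p = 0.0857, and 0.00510 with the block). ST6GALNAC4, which lies next to ST6GALNAC6, stood at -0.04, ST6GALNAC3 at -0.45 and ST6GALNAC2 at 0.39 (adjusted p of 0.536 or more in all 3). Single libraries moved both of the last. ST6GALNAC2 ranged from 0.11 without H295R replicate 3 to 0.67 without H295R replicate 2. ST6GALNAC3 stood at -0.76 without H295R replicate 1 (adjusted p = 0.0575), -0.21 without H295R replicate 3 and -0.28 without H295R-PM-Ptc+ replicate 1, and it passed without both libraries of code 1801 (-0.58, adjusted p = 0.0305). ST6GALNAC1, ST6GALNAC5, ST8SIA2, ST8SIA3 and ST8SIA6 had at most 4 counts in any library. Over all 20 genes ST6GAL1 held 16.9% ± 0.799 of the summed per-length level in the libraries labelled H295R and 9.98% ± 0.310 in the others (SD, n = 3 each), and ST8SIA5 14.5% ± 3.58 and 17.6% ± 3.82.

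Among the 5 genes that supply the donor, 0 passed by edgeR, DESeq2 or limma-voom, 2 had an unadjusted p under 0.05, 4 were below 0 and the median log2 fold change was -0.21. CMAS, which activates sialic acid to CMP-sialic acid, had 167 ± 1.96 and 174 ± 7.07 CPM, and NANS, which makes its phosphate, 160 ± 19.9 and 138 ± 12.0 CPM (log2 fold changes 0.06 and -0.21, adjusted p = 0.736 and 0.362). NANS stood at -0.10 without H295R replicate 1, and its adjusted p was 0.00301 with the block. GNE, the rate-limiting enzyme of the pathway, stood at -0.22 (adjusted p = 0.180). With the block 3 of the 5 passed, all as lower. Of all tested genes the block called 22.5%, and 17.3% had an unadjusted p under 0.05.

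Among 8 tested genes of sialic acid removal and turnover, 0 passed by edgeR or limma-voom, 1 by DESeq2 (NEU1), 3 had an unadjusted p under 0.05, and the block called 3, all as higher. The shares over all tested genes were 5.45% by DESeq2, 17.3% at an unadjusted p under 0.05 and 22.5% with the block. NEU1, the lysosomal sialidase, had 51.9, 45.7 and 48.4 CPM in the libraries labelled H295R and 65.1, 57.9 and 62.9 in the others. These groups did not overlap, and the fitted log2 change was 0.35 with an SE of 0.0814 (adjusted p = 0.0522, 0.0270 without H295R replicate 1 and 1.20e-04 with the block). CTSA, the protective protein that holds NEU1 in its complex, stood at 0.29 (adjusted p = 0.127, and 1.82e-04 with the block).

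Of the 4 tested genes that build the lipid core of gangliosides, 1 passed, beside 3.73% of all tested genes. UGCG, which makes glucosylceramide, the first step toward all of them, fell from 346 ± 19.6 to 253 ± 8.79 CPM (SD, n = 3 each), a fitted log2 change of -0.45 with an SE of 0.0766 (adjusted p = 0.0153, edgeR). Leaving out replicate 2 or 3 of the libraries labelled H295R gave UGCG an adjusted p of 0.0506 or 0.0544, and leaving out replicate 2 or 3 of those labelled H295R-PM-Ptc+ gave 0.0596 or 0.0890. These fits also called fewer of all genes, 219 to 278, against 624 with all 6 libraries. B4GALT5, the main lactosylceramide synthase, stood at 0.09 (adjusted p = 0.692), and B4GALNT1, which turns GM3 and GD3 into longer gangliosides, at 0.02 (adjusted p = 0.958). With the block 2 of the 4 passed, UGCG and B4GALT6, both as lower, beside 22.5% of all tested genes.

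The enzymes that make the galactose ends on which the ST6GAL and ST3GAL enzymes act showed 0 calls in 9 tested N-glycan genes and 0 in 4 O-glycan genes by edgeR, DESeq2 or limma-voom, with 1 and 2 at an unadjusted p under 0.05. With the replicate block 1 of the N-glycan genes (B4GALT1) and 2 of the O-glycan genes (GCNT1 and GCNT4) passed, all as higher. The block called 22.5% of all tested genes, and 17.3% of them had an unadjusted p under 0.05. MGAT2 and MGAT5, branching enzymes of N-glycans, were at -0.03 and 0.04, GCNT1, which branches the O-glycan core, at 0.41 (adjusted p = 0.106, and 0.00714 with the block), and C1GALT1C1, the chaperone of the core galactosyltransferase, at -0.11. Of 3 tested galectins, lectins that bind galactose ends, LGALS8 rose from 28.8 ± 2.06 to 37.8 ± 1.28 CPM (log2 fold change 0.39, SE 0.0808, adjusted p = 0.0353). The adjusted p of LGALS8 rose to between 0.0551 and 0.147 when replicate 2 or 3 of the libraries labelled H295R, or any 1 of those labelled H295R-PM-Ptc+, was left out. Those fits called 219 to 430 of all genes, against 624 with all 6 libraries. LGALS1 stood at -0.15 (adjusted p = 0.608, and 0.0402 with the block), and at -0.0492 without H295R replicate 1. Leaving out replicate 2 or 1 of the libraries labelled H295R-PM-Ptc+ gave LGALS1 a value of -0.0761 or -0.29. LGALS3 had 0 counts in 5 libraries and 2 in the other.

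**Figure D5:**
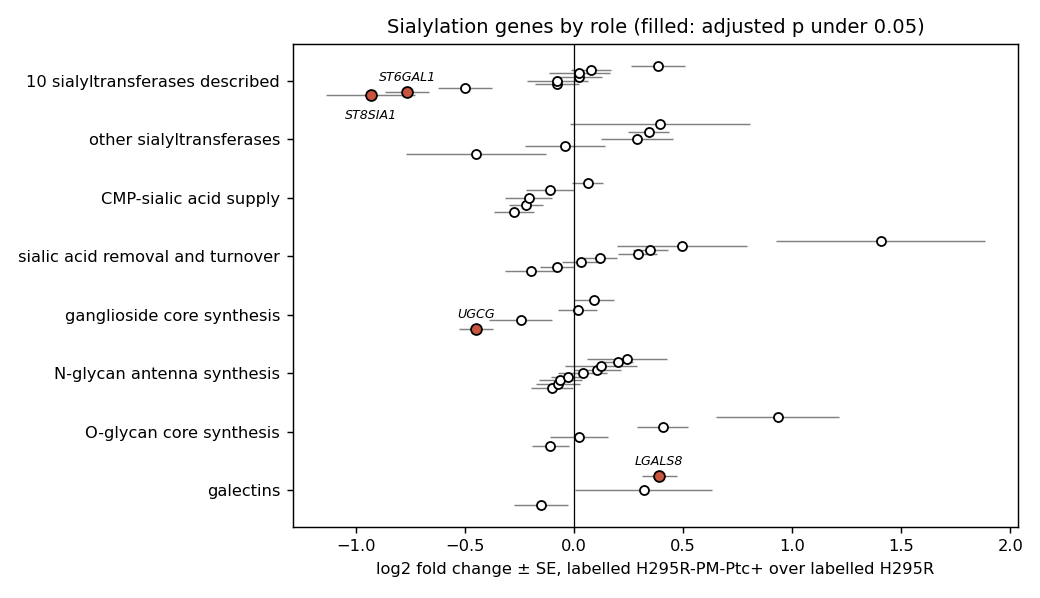
Log2 fold change with its standard error for each tested gene of the 8 lists, by role, with filled points for an adjusted p under 0.05. The 4 filled points are ST8SIA1 (-0.93), ST6GAL1 (-0.77), UGCG (-0.45) and LGALS8 (0.39).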

How the data were processed

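RNA of 3 libraries labelled H295R and 3 labelled H295R-PM-Ptc+ was sequenced in paired reads. The authors mapped reads with STAR 2.4.0a to hg38, counted fragments per gene name on Ensembl GRCh38 with featureCounts (strand option on, multiply mapped reads at their primary position) and deposited raw counts per library. The paper names a stranded mRNA kit and the labels a stranded total RNA kit, and GAPDH had 3230 to 3450 CPM. One row with no gene name held 0% of the counts and was left out.

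The test was run in R 4.3.3 on the counts with edgeR 4.0.16 by the quasi-likelihood test (glmQLFit, glmQLFTest) with TMM factors, after filterByExpr and with the group alone in the model, two-sided, and adjusted by Benjamini-Hochberg over the 16710 genes tested. CPM use TMM-scaled library sizes. The step was tested on simulated data. DESeq2 1.42.0, limma-voom (limma 3.58.1), RLE size factors, other filters on low counts, the replicate block and leaving out each library were the alternatives. Replicates varied beyond counting error (chi-square per gene 6.07 to 28.8, where 1 is counting error alone). Intervals cover counting error only.

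Deviations from the group means of same-numbered libraries correlated at 0.497, 0.307 and 0.228 across genes, against -0.352 to 0.150 for others. Deviations within a group sum to 0, so the negative values are partly set by the positive ones. Replicate 1 was set apart, while replicates 2 and 3 were told apart less (0.307 and 0.228, against 0.109 and 0.150 across them). The block takes the numbers, shared with the label codes, as pairs. Promoter windows are from RefSeq. The 10 genes and the lists were chosen with earlier results of these data known. Named are the 10 genes, PTCH1, all other sialyltransferases, list genes that passed or had the 2 highest CPM of their list, genes overlapping a member, and the 3 most like ST6GAL1, of which 1 is not reported here, nor is 1 leukocyte marker. GNE, B4GALNT1, B4GALT6, B4GALT1, GCNT4, LGALS3 and the marker genes were named after their values were seen.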

Additional observations from a re-analysis of the deposited data

How the results depend on the processing

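ST6GAL1 kept its direction and its call in all 13 alternatives. Over all 16710 tested genes 624 passed (3.73%). No filter on low counts gave 1111 (3.59% of the genes then tested), the replicate block 3758 (22.5%), leaving out both libraries of code 1801 gave 2013 (12.0%), and leaving out 1 library 219 to 810. Of the 9 tested members 2 passed, and 4 did with no filter, with the replicate block and without code 1801, against 1 to 4 with 1 library left out. DESeq2 gave 3. In the other 7 lists, which hold 47 genes, 2 passed (UGCG and LGALS8), 15 with the replicate block, 7 without code 1801 and 0 to 3 with 1 library left out. The block ended no call among the members or these lists.

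Values near 0 changed sign. Without code 1801 ST6GALNAC6 stood at 0.0035 and ST6GALNAC4 at 0.0757 (log2). With 1 library left out the ranges were -0.0039 to 0.14 for ST3GAL2, -0.0766 to 0.18 for ST3GAL3, -0.0402 to 0.12 for ST3GAL4 and -0.18 to 0.0952 for ST6GALNAC6, -0.198 to 0.195 for ST6GALNAC4, -0.0897 to 0.0168 for MGAT2 and -0.0510 to 0.121 for MGAT5 (log2). By CPM without the length, 5 of the 10 members kept their place in the order of levels. The cause of these changes was not tested. Depth limits ST8SIA1, with 27 to 73 counts per library, and the genes with 0 to 4 counts.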
